A study of Mus musculus with 36 samples.

Results

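Opalin, Pllp and Aspa are 3 genes of the mature oligodendrocyte. They were followed here through the 36 expression arrays of a study of sleep and waking in the mouse forebrain. They were taken by gene symbol, and had been selected on being lower in both wake states than in sleep in the bound arrays described next, so those bound differences are given as a description and support nothing. The array carries 4 probe sets for them, of 18193 genes with a probe set naming a single gene. Opalin has 2 probe sets (1435854_at and 1447487_at), Pllp has 1448945_at and Aspa has 1418472_at. All 3 genes were among the 13924 genes tested after a filter on low signal. The brighter Opalin probe set, 1435854_at, stands for the gene unless the other is named.

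Opalin is a small glycosylated transmembrane protein found at the inner loop and paranodal edges of the myelin sheath. Pllp encodes plasmolipin, a proteolipid with a MARVEL domain that sits in myelin and other cholesterol-rich membranes. Aspa encodes aspartoacylase, the enzyme with which oligodendrocytes cleave N-acetylaspartate, made by neurons, into aspartate and acetate. Inherited loss of aspartoacylase causes Canavan disease, in which white matter becomes spongy. Oligodendrocytes make the myelin that wraps axons, and all 3 messages are used as markers of their mature stage.

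All animals were adult C57BL/6 mice heterozygous for Cnp–eGFP-L10a, a ribosomal protein carrying a fluorescent tag under the Cnp promoter, so that a pull-down of the tag brings down messages on oligodendrocyte ribosomes. Sex and exact age are not in the labels used here. The forebrain of each animal gave a bound array (the pull-down) and an unbound array (what was left). Sleep mice were killed at 3 to 5 pm, in the light, having slept at least 75% of the last 6 to 7 h. Waking mice were killed at 3 to 5 am, in the dark, having been awake at least 70% of such a span. Sleep deprived mice had mostly been awake in the dark and were then kept awake with new objects for 4 h of the light period. Each state had 6 animals, which the labels call biological replicates, and all groups carried the tag. Spontaneous waking and time of day cannot be told apart against sleep. The labels used here hold no clock time of killing for sleep deprived mice, so whether it matched that of sleep mice is not known. No group lacked the tag or the pull-down, so messages that stick without the tag were not measured.

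Because the 3 genes were all lower in both wake states in the bound arrays, the 250 bases before each RefSeq start site are shown first, from the table of build GRCm38.p6. Opalin lies at chr19:41061959-41077113, Pllp at chr8:94674895-94696242 and Aspa at chr11:73304987-73326876. All 3 genes are read from the minus strand, and the sequences run 5′ to 3′ on it. The Opalin stretch is chr19:41077114-41077363, the Pllp stretch chr8:94696243-94696492 and the Aspa stretch chr11:73324638-73324887. The Aspa start used by the table lies inside the gene's annotated span. Capitals mark the motifs named next.
Opalin: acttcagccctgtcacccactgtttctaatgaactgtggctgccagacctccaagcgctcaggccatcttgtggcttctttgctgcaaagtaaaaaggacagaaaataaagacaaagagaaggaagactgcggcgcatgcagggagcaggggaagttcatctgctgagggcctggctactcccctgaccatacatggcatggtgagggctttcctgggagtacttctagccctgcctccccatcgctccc
Pllp: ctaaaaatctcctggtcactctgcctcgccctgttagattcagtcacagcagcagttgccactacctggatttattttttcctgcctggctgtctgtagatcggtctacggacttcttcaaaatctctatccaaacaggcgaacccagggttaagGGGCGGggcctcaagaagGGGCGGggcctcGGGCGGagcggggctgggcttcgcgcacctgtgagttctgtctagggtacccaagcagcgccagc
Aspa: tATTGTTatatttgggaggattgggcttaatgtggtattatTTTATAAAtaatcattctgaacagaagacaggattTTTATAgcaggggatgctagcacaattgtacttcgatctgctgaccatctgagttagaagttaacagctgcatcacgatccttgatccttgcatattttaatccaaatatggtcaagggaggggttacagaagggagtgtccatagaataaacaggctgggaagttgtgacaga
Opalin and Pllp lay near each other in base composition, and Aspa was poorer in G and C. The GC content was 54.4% for Opalin, 57.2% for Pllp and 38.8% for Aspa over these 250 bases. They held 4, 12 and 2 CpG dinucleotides in the same order. The median window of all promoters had a GC content of 52.4%.

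In all, 7 motifs were searched on both strands of the 300-base windows that run 50 bases past the start, and none was found in all 3 genes. Pllp held the GC box GGGCGG 3 times on its own strand, from bases -95, -77 and -65 counted from the start. Among all 32851 promoters 35.7% held that box. Aspa held the TATA letters TATAAA in 3 overlapping or nearby matches, from bases -209, -207 and -174, far from the usual place of a TATA box, and 13.6% of promoters held them. Aspa also held the SOX letters AACAAT, read on the other strand as ATTGTT from base -249, against 10.7% of promoters. The letters of MYRF, the transcription factor that drives myelin genes, were searched as CTGGCAC or CTGGTAC, which 7.1% of promoters held. Opalin alone of the 3 held them, on the other strand at bases 37 to 43 from the start. The 30 bases around them, bases 21 to 50, lie at chr19:41077064-41077093.
Opalin: gagacaaagacctgcaGTGCCAGtgagaga
The capitals are the MYRF letters as read on the gene's strand. The E-box CACGTG, the glucocorticoid receptor letters AGAACA and the heat shock letters GAANNTTC were in none of the 3 windows. They were in 7.15%, 19% and 7.86% of all promoters. Whether any of these letters is bound was not measured here.

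The values are log2 signals as the authors deposited them. The mean over all probe sets of an array ran from 5.91 to 5.94 in bound arrays and from 6.33 to 6.42 in unbound arrays. In the unbound fraction the waking arrays (6.33 to 6.34) lay below the sleep arrays (6.39 to 6.42) without overlap. Bound arrays carried the labelled cell type. The summed level of the 25 measured genes of a myelin and mature oligodendrocyte list was 17.55 to 17.67 (log2) in bound and 15.3 to 15.71 in unbound arrays, so the unbound fraction still held oligodendrocyte messages. The 11 measured neuron markers summed to 15.23 to 15.61 in bound and 16.18 to 16.36 in unbound arrays, so the pull-down still held neuron messages. Xist and Y-linked genes set 3 animals apart from the other 15, namely waking replicates 3 and 5 and sleep deprived replicate 11. Their mean Y-linked signal was 2.64 to 3.53 (log2), against 7.47 to 8.53 in the others. Their Xist signal was higher, at 5.33 to 6.75 against 3.53 to 4.96. No sleep animal was among them, so this sex-linked pattern is uneven across the states. In bound waking, Aspa was 12.11 and 12.12 in the 2 animals set apart and 12.23 to 12.27 in the other 4, and the lowest Opalin and Pllp arrays of that group (12.19 and 11.83) also came from them. The bound differences of the 3 genes from sleep and the unbound calls of Opalin are given with and without these animals. So is the bound call of Aspa between the wake states. Calls of listed genes are given with them only. In such bulk samples, fewer cells of a type and less RNA per cell cannot be told apart.

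Opalin was lower in both wake states than in sleep in the bound fraction. In bound sleep arrays its log2 signal was 13.16 at the lowest, 13.22 at the median and 13.43 at the highest. In bound waking arrays it ran from 12.19 through 12.48 to 12.78. In bound sleep deprived arrays it ran from 11.98 through 12.39 to 12.67. Every wake array lay below every sleep array, with a gap of 0.38 to waking and 0.48 to sleep deprivation. The mean differed from sleep by -0.77 in waking and -0.88 in sleep deprivation, which is 58.8% and 54.5% of the sleep signal.

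The dimmer Opalin probe set, 1447487_at, was lower too but far more variable. Its bound sleep arrays ran from 7.87 through 8.54 to 9.30, its waking arrays from 4.98 through 7.37 to 8.42, and its sleep deprived arrays from 6.61 through 7.25 to 8.40. The groups overlapped, with 5 of 6 waking and 5 of 6 sleep deprived arrays below the lowest sleep array. Its mean difference from sleep was -1.31 in waking and -1.17 in sleep deprivation. In the unbound fraction its mean lay below the filter level of 5.18, and it is described there only as dim.

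Pllp showed the same order of size as Opalin in the bound fraction. Its bound sleep arrays ran from 12.62 through 12.86 to 12.95. Waking arrays ran from 11.83 through 12.11 to 12.31. Sleep deprived arrays ran from 11.89 through 12.19 to 12.34. No wake array reached the lowest sleep array, the gap being 0.31 to waking and 0.29 to sleep deprivation. The mean differed from sleep by -0.75 in waking and -0.66 in sleep deprivation, which is 59.5% and 63.2% of the sleep signal.

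Aspa moved least and had the tightest groups. Bound sleep arrays ran from 12.40 through 12.43 to 12.53, with an SD of 0.05. Waking arrays ran from 12.11 through 12.24 to 12.27, and sleep deprived arrays from 11.91 through 12.04 to 12.17. The 3 states were stacked in that order, and neither wake group overlapped with sleep. The mean differed from sleep by -0.23 in waking and -0.41 in sleep deprivation, which is 85% and 75.3% of the sleep signal. The pooled within-state SD of Aspa in bound arrays was 0.0711, against 0.295 for the median tested gene. Without the 3 animals set apart by sex-linked genes the Aspa differences were -0.19 and -0.41, those of Opalin -0.71 and -0.91, and those of Pllp -0.72 and -0.67.

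These bound differences are what the genes were chosen by. A gene is called here when its limma p, adjusted by Benjamini-Hochberg over all 13924 genes, is below 0.05. As background for the choice, 4.79% of tested genes were called lower in bound waking than in sleep, 6.87% in bound sleep deprivation, and 2.39% in both. A further measure of the same choice, all wake arrays below all sleep arrays, was met by 122 genes, or 0.876%. Aspa lay closest to the edge of the choice, with 22.8% of tested genes lower than it in waking. Both comparisons use the same sleep arrays.

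**Figure D1:**
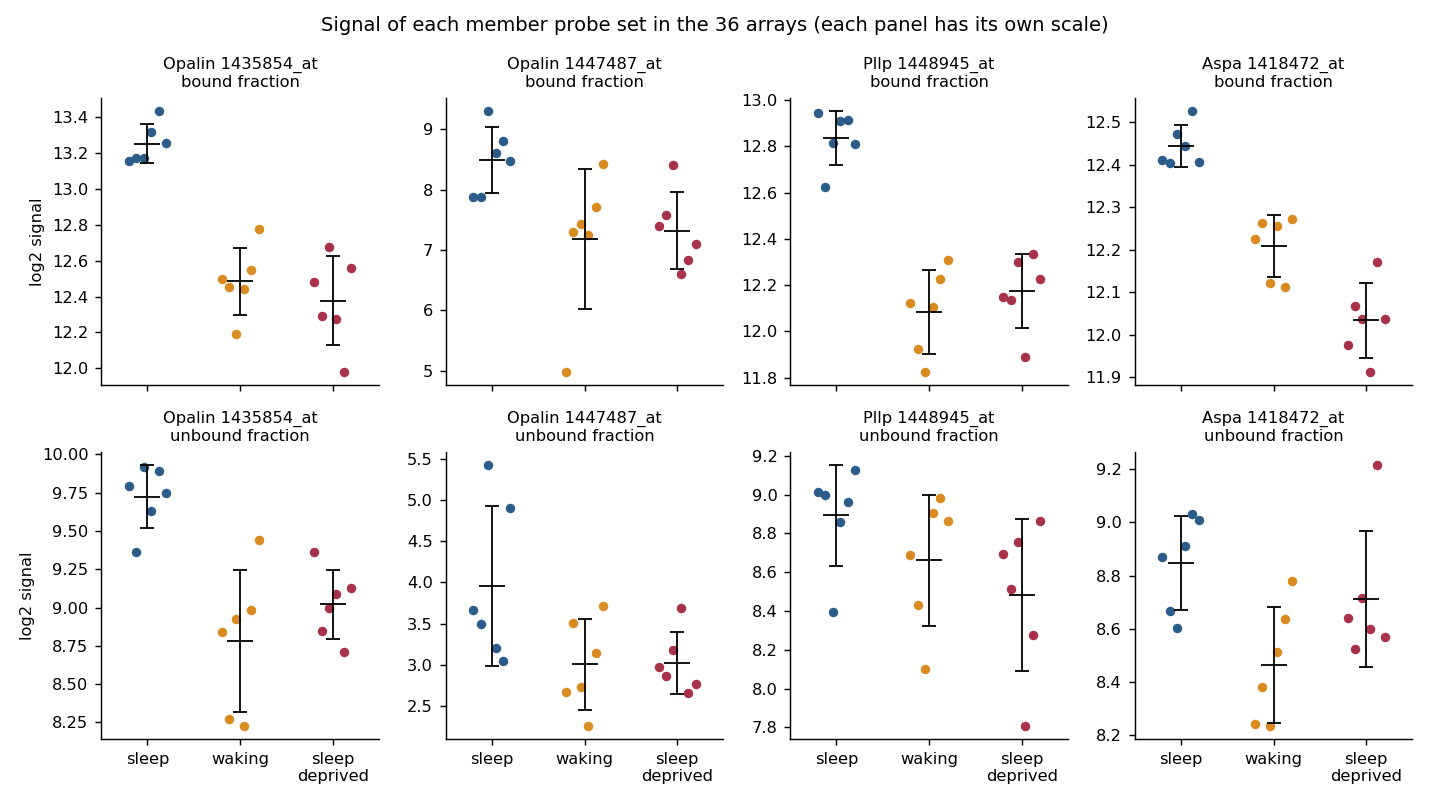
Log2 signal (vertical axis, own scale in each panel) of the 4 probe sets in each array by state (horizontal axis), bound fraction above and unbound below, with points for the 6 animals and bars for the mean ± SD. In the bound panels of 1435854_at, Pllp and Aspa all sleep points lie above all wake points, while in the unbound panels every group overlaps with another.

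The unbound arrays were not used to choose the genes, although they come from the same animals. Of the 3 genes, only Opalin passed the test there, and it did so in both wake states. Unbound sleep arrays of Opalin ran from 9.36 through 9.77 to 9.92. Unbound waking arrays ran from 8.22 through 8.88 to 9.44, and sleep deprived arrays from 8.71 through 9.04 to 9.36. The groups overlapped slightly, with 5 of 6 waking arrays and 5 of 6 sleep deprived arrays below the lowest sleep array, and all 12 below the sleep mean. Opalin fell by 0.94 in waking (SE 0.177, limma adjusted p = 0.00379) and by 0.70 in sleep deprivation (SE 0.177, limma adjusted p = 0.0183). These are 52.1% and 61.5% of the unbound sleep signal. The background in these comparisons was 7.21% of genes called in waking (5.72% lower) and 7.82% in sleep deprivation (3.17% lower). Called lower in both were 1.26% of genes. With quantile normalization or median centring 4.52% to 4.89% of genes were called in unbound waking, and 50.1% to 51.6% of those calls were higher, against 20.6% on the deposited values. On those scalings Opalin stood at -0.90 to -0.85 in waking and -0.77 to -0.72 in sleep deprivation, at an adjusted p of at most 0.0173.

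Other values moved with the unbound waking difference of Opalin. The median difference of all tested genes was -0.09 in unbound waking against sleep and 0.02 in unbound sleep deprivation against sleep. The mean of the 25 myelin list genes was 9.71 ± 0.09 (SD, n = 6) in unbound sleep, 9.53 ± 0.12 in waking and 9.74 ± 0.08 in sleep deprivation. With each array set relative to that myelin mean, an alternative chosen after seeing the data, Opalin stood at -0.76 in waking (limma adjusted p = 0.0281) and -0.72 in sleep deprivation (limma adjusted p = 0.0311). Without the 3 animals set apart by sex-linked genes its differences were -1.03 (limma adjusted p = 0.0118) and -0.72 (limma adjusted p = 0.0319). The call of Opalin also held with each animal left out in turn, at an adjusted p of at most 0.0103 in waking and 0.0449 in sleep deprivation.

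The second Opalin probe set was too dim in the unbound fraction to add much. In a limma fit over 28768 probe sets its unbound difference was -0.95 in waking (adjusted p = 0.1) and -0.93 in sleep deprivation (adjusted p = 0.111). It had the sign of the brighter probe set in both, without passing the test in either.

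Pllp did not pass the test in the unbound fraction. Its sleep arrays ran from 8.40 through 8.98 to 9.13, its waking arrays from 8.10 through 8.78 to 8.98, and its sleep deprived arrays from 7.81 through 8.60 to 8.87. The groups overlapped widely, with 1 of 6 waking and 2 of 6 sleep deprived arrays below the lowest sleep array. The difference from sleep was -0.23 in waking (95% interval -0.62 to 0.16, limma adjusted p = 0.482) and -0.41 in sleep deprivation (-0.80 to -0.02, limma adjusted p = 0.198). Both intervals are wide.

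Aspa did not pass the test in the unbound fraction either. Its sleep arrays ran from 8.60 through 8.89 to 9.03, its waking arrays from 8.23 through 8.45 to 8.78, and its sleep deprived arrays from 8.53 through 8.62 to 9.22. All 6 waking arrays lay below the sleep mean, 4 of them below the lowest sleep array. The difference was -0.39 in waking (95% interval -0.67 to -0.10, limma adjusted p = 0.0879) and -0.14 in sleep deprivation (-0.42 to 0.15, limma adjusted p = 0.602). Relative to the myelin list mean of the same array, the waking difference of Aspa was -0.20 (limma adjusted p = 0.402).

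The 2 wake states were then compared with each other. Sleep deprivation was imposed in the light, and spontaneous waking was in the dark, so state and time of day cannot be told apart here. The bound arrays of this comparison also entered the choice of the genes. Aspa fell further in sleep deprivation, by 0.17 (SE 0.0471, limma adjusted p = 0.036), with 5 of 6 sleep deprived arrays below the lowest waking array. The background was 5.01% of genes called in either direction and 2.32% called lower. The call of Aspa lay near the threshold. It was lost in 8 of the 12 fits that left out an animal (waking 1, 2, 4 or 6, or sleep deprived 6, 8, 9 or 11), with adjusted p-values up to 0.0776, while the difference ran from -0.20 to -0.15. It was also lost without the intensity trend (limma adjusted p = 0.152), and held at -0.22 (limma adjusted p = 0.0481) without the 3 animals set apart by sex-linked genes.

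Opalin and Pllp showed no call between the wake states in the bound fraction. Opalin differed by -0.11 (95% interval -0.32 to 0.10, limma adjusted p = 0.606) and Pllp by 0.09 (-0.09 to 0.27, limma adjusted p = 0.62). In the unbound fraction none of the 3 was called, against 9.94% of all genes (8.45% higher) and a median of all genes of 0.11. That background depends on the scaling. With quantile normalization or median centring 3.91% to 4.19% of genes were called, and 46.8% to 48.8% of the calls were higher, against 85% on the deposited values. Opalin stood at 0.24 (limma adjusted p = 0.419), Pllp at -0.18 (limma adjusted p = 0.592) and Aspa at 0.25 (limma adjusted p = 0.26).

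Whether sleep deprivation differed from waking by a different amount in bound and unbound arrays was tested on the difference between both arrays of an animal, for which 4.27% of genes were called (25.6% of them higher, and 51% to 53% with quantile normalization or median centring). None of the 3 was. Aspa came nearest, at -0.42 (SE 0.123, limma adjusted p = 0.0548), being lower in sleep deprivation in the bound arrays and having a higher mean in the unbound arrays. Relative to the myelin list mean it stood at -0.22 (limma adjusted p = 0.315), with an unbound part of 0.04 (adjusted p = 0.891), and with median centring at -0.32 (adjusted p = 0.189). Opalin stood at -0.35 (limma adjusted p = 0.217) and Pllp at 0.26 (limma adjusted p = 0.336).

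**Figure D2:**
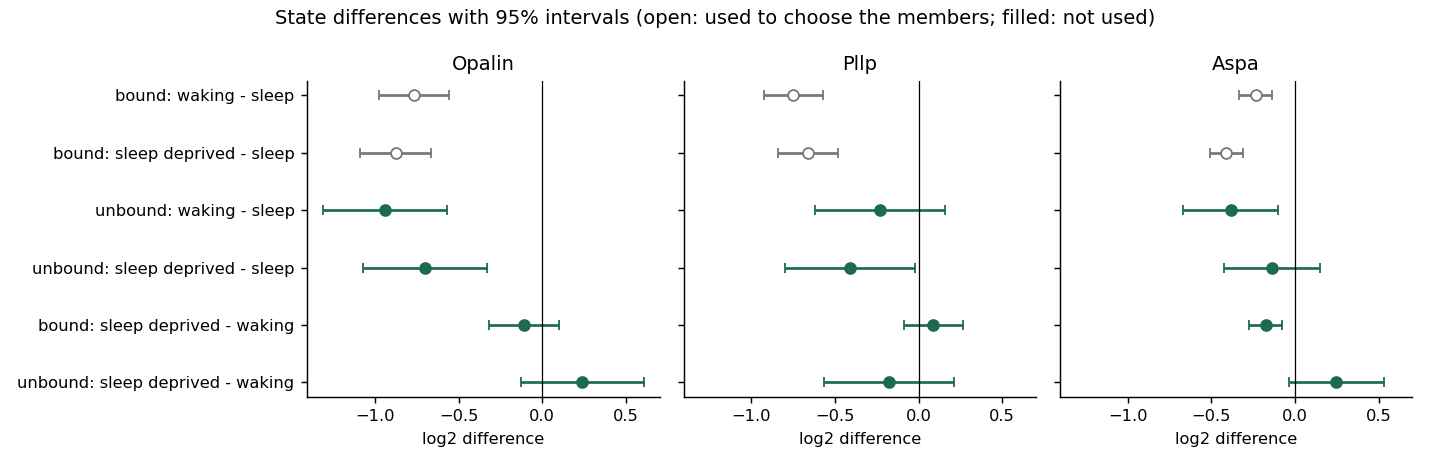
Log2 difference (horizontal axis) between states for Opalin, Pllp and Aspa with 95% intervals from the limma fit, open for the 2 bound comparisons that chose the genes and filled for the rest. Opalin lies left of zero in both unbound comparisons with sleep, at -0.94 and -0.70, while the intervals of Pllp and Aspa there lie closer to zero or cross it.

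All 3 genes were strongly enriched by the pull-down. Bound arrays exceeded unbound arrays of the same animal in 18 of 18 animals for each gene. Pllp was 12.9-fold higher (log2 3.69, SE 0.0619, limma adjusted p = 4.86e-21), Aspa 11.8-fold (3.55, SE 0.0502, 7.47e-22) and Opalin 11.5-fold (3.53, SE 0.0648, 1.89e-20). The second Opalin probe set gave 4.34 (adjusted p = 2.24e-14 in the limma fit over all probe sets). As background, 83.6% of tested genes differed between the fractions and 25.5% were higher in bound arrays. The share of those calls that were higher was 30.5%, and 50.3% with median centring, on which the 3 genes stood at 3.89 to 4.05. Only 53 of 13924 genes were enriched at least as much as Opalin, the 3 genes themselves included. The 25 myelin list genes were all called higher in bound arrays with a median of 2.86, and 18 of the 25 were enriched less than Opalin.

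The enrichment per animal differed in order between the genes. Pllp had its highest mean in sleep, at 3.94 ± 0.29 (SD, n = 6), against 3.42 ± 0.19 in waking and 3.69 ± 0.31 in sleep deprivation. Opalin had its highest mean in waking, at 3.70 ± 0.41, against 3.53 ± 0.20 in sleep and 3.35 ± 0.20 in sleep deprivation. Aspa stood at 3.75 ± 0.22 in waking, 3.59 ± 0.17 in sleep and 3.32 ± 0.20 in sleep deprivation. These values hold the bound sleep comparison that chose the genes and were given no test between sleep and the wake states.

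**Figure D3:**
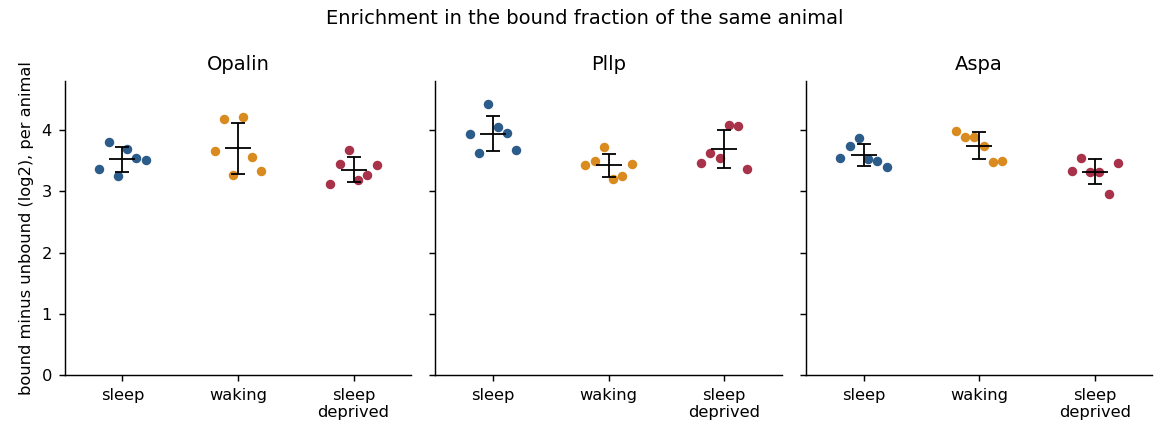
Bound minus unbound log2 signal of each animal (vertical axis, from zero) by state for the 3 genes, with the mean ± SD of 6 animals as bars. Every point lies at 2.96 or above, and the states overlap in each panel.

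To see whether other myelin genes did the same, the list of 28 myelin and mature oligodendrocyte genes, 25 of them tested and none of them one of the 3, was read beside the members. In bound waking 2 rose and 3 fell, where 9.47% of all genes were called. The genes that fell were Tmem125 (-0.65, limma adjusted p = 0.000434), an oligodendrocyte membrane protein, Mag (-0.27, adjusted p = 0.00358), the adhesion protein of the inner myelin surface, and Cnp (-0.09, adjusted p = 0.0138), the enzyme whose promoter drives the tag. Those that rose were Nkx6-2 (0.29, adjusted p = 0.018), an oligodendrocyte transcription factor, and Mobp (0.21, adjusted p = 0.0453), a basic protein of compact myelin. The call of Cnp was lost with median centring and with quantile normalization within each fraction. With either quantile normalization the receptor gene Gpr37 was called lower as well. The list's median difference was -0.03, against -0.01 for all tested genes.

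In bound sleep deprivation 2 of the 25 rose and 3 fell, where 14.4% of all genes were called. Tmem125 (-0.64, limma adjusted p = 0.000217), the gap junction gene Gjb1 (-0.55, adjusted p = 0.0253) and the receptor gene Gpr37 (-0.40, adjusted p = 0.00347) fell. Mobp (0.40, adjusted p = 0.000448) and Mbp (0.11, adjusted p = 0.0338), both basic proteins of compact myelin, rose. The median of the list was 0.02, against -0.01 for all genes. On the deposited values Tmem125 was the list's only gene called lower in both bound wake states. Mobp was its only gene called higher in both, which 2.63% of all genes were. With quantile normalization 7 genes of the list were called lower and Mobp alone higher in sleep deprivation, and within each fraction Mobp lost its call in waking. With either quantile normalization Gpr37 was also called lower in both bound wake states, and so was Cnp with all arrays normalized together. None of the 25 was as far below sleep as Opalin or Pllp in either bound comparison, and 5 in waking and 3 in sleep deprivation were further below than Aspa. The bound comparisons chose Opalin, Pllp and Aspa, so this order comes with the choice and supports nothing.

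In the unbound fraction 1 of the 25 rose and 3 fell in waking, and 2 rose and none fell in sleep deprivation, where 7.21% and 7.82% of all genes were called. These shares of the list are near the background in sleep deprivation. Mag (-0.66, limma adjusted p = 0.00366), the carbonic anhydrase gene Car2 (-0.41, adjusted p = 0.0458) and Cnp (-0.14, adjusted p = 0.0451) fell in waking. With quantile normalization or median centring Mag alone of the list was called lower there. Mobp rose in waking (0.27, limma adjusted p = 0.0489) and in sleep deprivation (0.71, adjusted p = 3.05e-05). Mbp rose in sleep deprivation (0.23, limma adjusted p = 0.0192). No gene of the list lay below Opalin in either unbound comparison, while 8 lay below Pllp and 6 below Aspa in waking, and 0 lay below Pllp and 8 below Aspa in sleep deprivation.

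**Figure D4:**
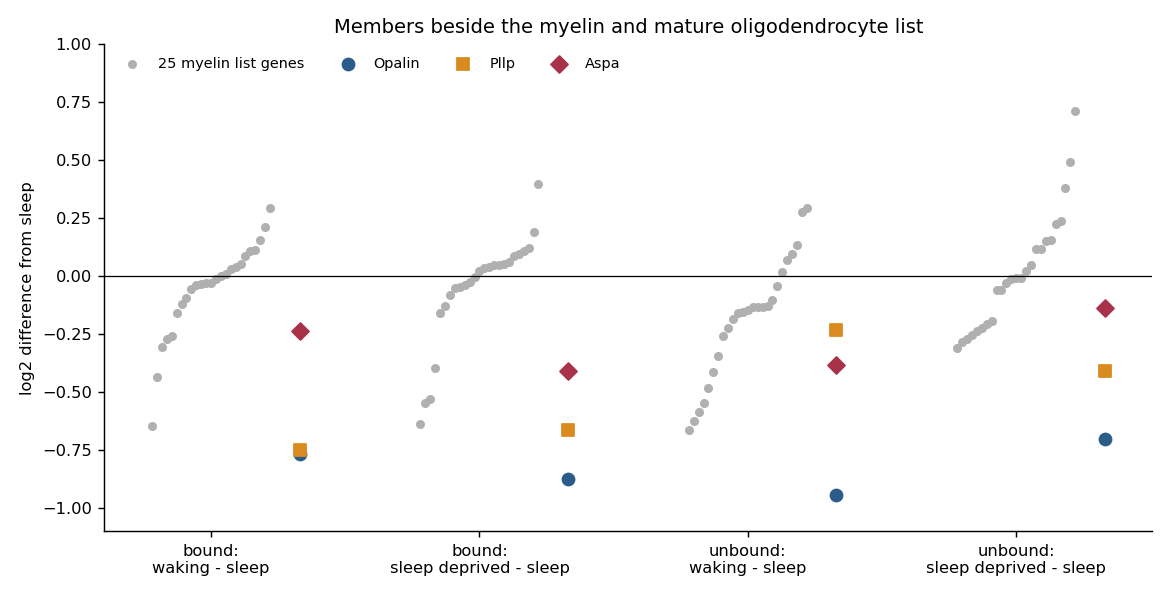
Log2 difference from sleep (vertical axis) in 4 comparisons, with grey points for the 25 tested genes of the myelin list in rank order and large symbols for Opalin, Pllp and Aspa. Grey points straddle zero, with medians of -0.03, 0.02, -0.15 and -0.01 from left to right, and Opalin lies below all of them in each comparison. In the bound comparisons, which chose the genes, that place comes with the choice.

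Set against the mean of the 25 myelin genes in the same array, the bound differences of the 3 genes kept their sign. Opalin stood at -0.71 in waking and -0.82 in sleep deprivation against sleep, Pllp at -0.69 and -0.61, and Aspa at -0.18 and -0.36. For each gene all 6 waking and all 6 sleep deprived arrays lay below every sleep array on this scale too. These arrays and comparisons chose the genes, so this is a description only. The myelin mean itself was 12.51 ± 0.02 (SD, n = 6) in bound sleep, 12.46 ± 0.03 in waking and 12.46 ± 0.06 in sleep deprivation. Among other cells, the summed precursor markers ran from 9.55 to 10.19 (log2) in bound sleep, from 9.33 to 10.03 in waking and from 9.27 to 9.71 in sleep deprivation. The summed neuron markers ran from 15.23 to 15.57, from 15.35 to 15.55 and from 15.26 to 15.61 in the same order. The astrocyte markers ran from 12.46 to 12.89, from 12.43 to 12.92 and from 12.66 to 13.00. These sums overlap between states, and their part in the bound differences was not tested.

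**Figure D5:**
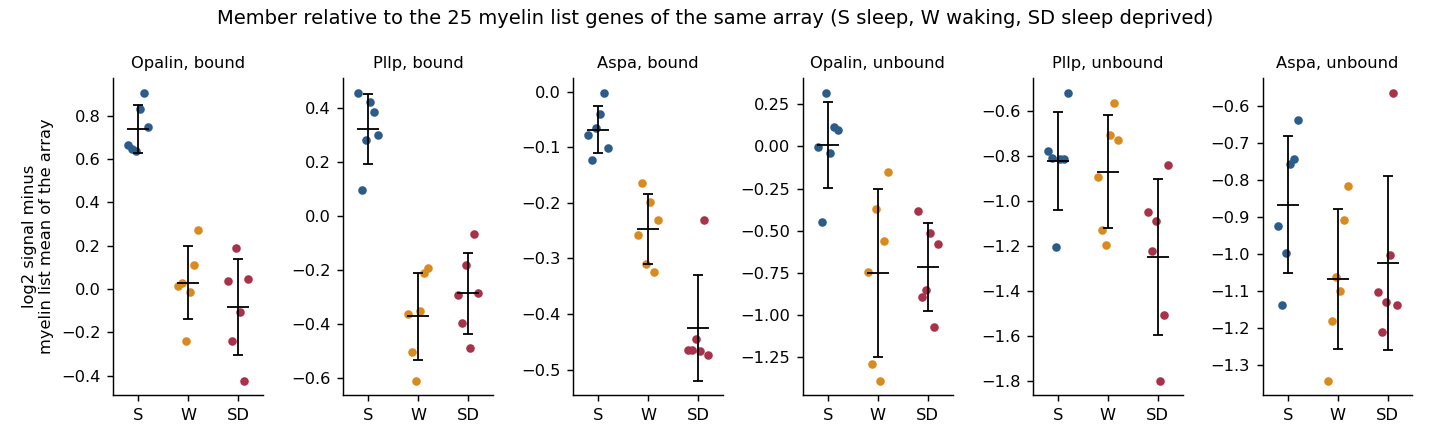
Log2 signal of each gene minus the mean of the 25 myelin list genes of the same array (vertical axis, own scale in each panel) by state, in bound (left) and unbound (right) arrays, with the mean ± SD of 6 animals as bars. In the bound panels no wake point reaches the lowest sleep point, while in the unbound panels 4 of 6 waking and 5 of 6 sleep deprived points of Opalin lie below every sleep point.

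The reaction Aspa catalyses was followed through 15 tested genes of N-acetylaspartate and acetate handling. In bound waking 1 of them was called, and it fell. In bound sleep deprivation 2 were called, and both fell. Of all genes 9.47% and 14.4% were called in those comparisons, and 4.79% and 6.87% were called lower. With 15 genes these counts are too small to read a difference from. Slc13a5, a sodium-coupled citrate transporter, fell in both (-1.61, limma adjusted p = 0.000644, and -1.70, adjusted p = 0.000213). As the mean over the states its bound signal was below its unbound signal (-0.48, limma adjusted p = 0.0025), but the states differed in sign. In sleep the bound mean was higher (7.37 against 6.59). It was lower in waking (5.76 against 6.65) and in sleep deprivation (5.67 against 6.99). Acss2, which turns acetate into acetyl-CoA, fell in sleep deprivation by 0.53 (limma adjusted p = 0.0369), a call lost with median centring, and stood at -0.36 in waking (adjusted p = 0.187). Nat8l, the enzyme that makes N-acetylaspartate, stood at 0.04 in bound waking (limma adjusted p = 0.818) and 0.13 in sleep deprivation (adjusted p = 0.346). The list's medians were -0.09 and 0.00 in the bound fraction. In the unbound fraction none was called in waking, and Slc13a3, a dicarboxylate transporter that also carries N-acetylaspartate, fell in sleep deprivation by 0.93 (limma adjusted p = 0.046).

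The protein family of Pllp was read through 17 tested genes for proteolipid and MARVEL membrane proteins. In bound waking 3 fell and none rose, and in bound sleep deprivation 1 fell and none rose. Called lower were 4.79% and 6.87% of all genes, so the count in sleep deprivation is at the background. Sypl, a relative of synaptophysin, fell in both, by 0.25 (limma adjusted p = 0.00101) and 0.21 (adjusted p = 0.00213). Pmp22, a tetraspan protein of peripheral myelin, fell by 0.62 in waking (limma adjusted p = 0.0101), and Cmtm6 fell by 0.49 (adjusted p = 0.0475). Mal, the myelin proteolipid of the same MARVEL family as Pllp, stood at -0.03 in waking (limma adjusted p = 0.753) and at 0.00 in sleep deprivation (adjusted p = 0.978). In the unbound fraction 2 fell in waking and 3 in sleep deprivation, where 5.72% and 3.17% of all genes were called lower, and none rose. Sypl fell there by 0.45 (limma adjusted p = 0.00126) and 0.35 (adjusted p = 0.00611), and Plp2 by 0.63 (adjusted p = 0.0312) and 0.69 (adjusted p = 0.0169). With quantile normalization or median centring Plp2 lost its call in waking, and with median centring Cmtm6 lost its call in bound waking. The list's median was -0.20 in bound waking and -0.13 in bound sleep deprivation.

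The genes most like the 3 were found by Pearson correlation with their mean standardised signal over the 18 bound arrays, which follows the same state difference that chose them. Of 13109 genes with a named symbol, 10 reached 0.9. The 6 highest were Tmem125 (0.944), the guanine nucleotide exchange factor gene Arhgef19 (0.939), the cell polarity gene Llgl1 (0.936), the Rab exchange factor gene Dennd5a (0.935), Tmod1 (0.927), which caps actin filaments, and Dgat2 (0.915), which makes triacylglycerol. In the bound arrays their differences from sleep ran from -0.87 to -0.42 in waking and from -1.14 to -0.51 in sleep deprivation, which the choice by likeness brings with it.

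In the unbound arrays, which that choice did not use, none of the 6 was called against sleep in either wake state by limma, where 7.21% and 7.82% of all genes were called, so 6 genes are too few to read a difference from. At an unadjusted limma p under 0.05 there was 1 of 6 in waking (Dennd5a, -0.27) and 0 of 6 in sleep deprivation. The share of all genes at that unadjusted threshold is not given here, so nothing is read from these counts. Their pull-down enrichment was uneven. Tmem125 stood at 4.42 (limma adjusted p = 1.96e-19), above Opalin, Pllp and Aspa. Llgl1 stood at 2.00, Tmod1 at 1.51, Dennd5a at 1.17 and Arhgef19 at 0.96, all of them called. Dgat2 was at -0.01 (limma adjusted p = 0.914) as the mean over the states, which differed in sign. In sleep its bound mean lay above its unbound mean (8.87 against 8.4). It lay below in waking (8.01 against 8.19) and in sleep deprivation (7.98 against 8.29).

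Within a state, animals with more of 1 gene were not shown to have more of another. Over the 18 animals, with each state's mean removed, 15 relations were computed among the 3 genes, the myelin list mean and both fractions, with permutation within states. None passed after Benjamini-Hochberg adjustment. The largest joined Pllp with the myelin list mean in unbound arrays (Pearson r = 0.684, permutation p = 0.00481, adjusted p = 0.0721, Spearman coefficient 0.459, permutation p = 0.0623, adjusted p = 0.324). It fell to r = 0.369 without the 2 animals farthest from the median. Opalin and Pllp in bound arrays stood at r = 0.44 (permutation p = 0.107, adjusted p = 0.229) and a Spearman coefficient of 0.47 (permutation p = 0.0764, adjusted p = 0.324), and at r = 0.729 without the 2 farthest. Opalin and Aspa in bound arrays stood at r = 0.0206 (permutation p = 0.948, adjusted p = 0.948) and a Spearman coefficient of 0.166 (permutation p = 0.548, adjusted p = 0.632), and at r = 0.454 without the 2 farthest.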

How the data were processed

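Messenger RNA of 18 animals was measured on 36 arrays of 45101 probe sets. The values used are log2 signals deposited by the authors, made with RMA per the submitters' processing notes. Its version and the arrays normalized together are not given in the sources used here, and scanner files were not analysed here. Array means within a group differed very little (SD 0.00293 to 0.00994). Probe sets were named from the platform annotation (34945 name 1 gene, 932 several, 9160 none, 64 are controls), and Entrez identifiers in RefSeq changed 0 symbols. Each gene took its probe set with the highest mean, and was tested where, in at least 1 fraction, its mean was no lower than percentile 40 of the array's probe sets.

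Group means were fitted per fraction (18 arrays) by limma 3.58.1 (R 4.3.3), moderating the variance along an intensity trend, and p-values were adjusted by Benjamini-Hochberg. Bound against unbound was fitted on the difference between the 2 arrays of an animal, which the design text pairs. The 2 comparisons that chose the genes have no test. Fits were tested on simulated data. The genes, the lists and the 6 genes of likeness were chosen with earlier results of these data known. The genes named from a list are those called in both bound wake states, and otherwise up to 4 with the smallest p. Nat8l, Mal, Myrf, Nkx2-2 and Olig1 were added after their values were seen. No 2 arrays were identical (highest correlation 0.9886). The number of arrays limits the precision. The closing section gives the effect of normalization, filter, probe set rule, trend, block and left-out animals.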

Additional observations from a re-analysis of the deposited data

Results flagged for a closer look

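Of 24 groups of 6 arrays (4 probe sets in 6 groups), 3 held a value far from the other 5, where chance gives about 1 in 20 groups. The Opalin probe set 1447487_at was 4.98 (log2) in bound waking replicate 1, with the nearest other array at 7.25. The brighter Opalin probe set did not set that array apart. Pllp was 8.40 in unbound sleep replicate 3, with the nearest at 8.86. Without that animal the unbound Pllp differences from sleep were -0.33 in waking (limma adjusted p = 0.295) and -0.51 in sleep deprivation (limma adjusted p = 0.112). Aspa was 9.22 in unbound sleep deprived replicate 10, with the nearest at 8.72. Without it, Aspa stood at -0.24 against sleep (limma adjusted p = 0.288) and at 0.15 against waking (limma adjusted p = 0.502).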

How the results depend on the processing

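Of 168 tested values of the 3 genes under other settings, 164 kept their direction and their side of the threshold, as did 223 of 234 with 1 animal left out. The bound differences from sleep, which have no test, kept their sign in all 57 and 72 values. Opalin between the bound wake states, not called, turned from -0.109 to 0.015 with the mean of both probe sets (limma adjusted p = 0.981). The unbound calls of Opalin held in all 10 other settings in waking and all 9 in sleep deprivation. The bound difference of Aspa between the wake states, -0.175, lost its call without the intensity trend (limma adjusted p = 0.152), and ran from -0.202 to -0.15 with 1 animal left out (adjusted p 0.0165 to 0.0776). The difference of Aspa between the fractions, -0.422, gained a call with no filter (limma adjusted p = 0.033) and with the mean of all probe sets (adjusted p = 0.0347). It ran from -0.476 to -0.349 with 1 animal left out (adjusted p 0.0446 to 0.114), and over the other settings from -0.482 to -0.221, the last relative to the myelin list mean (adjusted p = 0.315). It was called without waking 5, waking 6 or sleep deprived 7. With the mean of both probe sets, Opalin stood at -1.04 in bound waking. The cause was not tested in these cases.

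Counts of genes called over the whole array moved more. With no filter, 2819 (bound waking), 3551 (bound sleep deprivation), 2124 (bound between wake states), 2382, 2482 and 2771 (the same in unbound) and 1950 (between fractions) were called, against 1318, 2005, 698, 1004, 1089, 1384 and 594. Those are of 18193 genes without the filter and 13924 with it. As shares they are 15.5%, 19.5%, 11.7%, 13.1%, 13.6%, 15.2% and 10.7%, against 9.47%, 14.4%, 5.01%, 7.21%, 7.82%, 9.94% and 4.27%. Tested as single probe sets the counts were 2850, 4232, 1691, 2269, 2261, 3026 and 1453, and 23955 for bound against unbound (11642 genes). Of the 28768 probe sets these are 9.91%, 14.7%, 5.88%, 7.89%, 7.86%, 10.5%, 5.05% and 83.3% (83.6% of genes), so the shares moved little. Between the unbound wake states 584 and 582 were called with quantile normalization over all arrays or within each fraction, and 545 with median centring, which left 630 in unbound waking. Without the 3 animals set apart by sex-linked genes, which leaves fewer arrays, 684 (bound waking), 234 (bound between wake states), 533 (unbound waking), 710 (unbound between wake states) and 194 (between fractions) were called.

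Sleep and waking arrays share replicate numbers in the labels, and same-numbered arrays correlated at -0.000946 to 0.0868 in bound and -0.00503 to 0.1 in unbound arrays. Not every pair exceeded 0.1, so the numbers were not taken as a pairing, although arrays of 1 animal correlated no more and the check is weak. With the replicate block 464 genes were called in unbound waking, and Opalin kept -0.941 (limma adjusted p = 0.0208). Arrays of the same animal, which are paired by design, correlated at 0.0458 on average after the group means were removed, against -0.00257 for other pairs. Without that block the enrichment of Opalin was 3.53 (limma adjusted p = 3.51e-29). Signal limits the dim Opalin probe set in unbound arrays.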

Other observations

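Lists of oligodendrocyte transcription factors and of precursor genes were read beside Opalin, Pllp and Aspa. Of 14 tested transcription factor genes, 2 rose and none fell in bound waking, and 3 rose and 1 fell in bound sleep deprivation, where 9.47% and 14.4% of all genes were called. Yy1 rose in both, by 0.56 (limma adjusted p = 0.000217) and 0.34 (adjusted p = 0.00463). Nkx2-2 fell from a mean of 11.15 in bound sleep to 10.63 in bound sleep deprivation, a call kept on each scaling. With quantile normalization Olig1 was called lower in bound waking. Myrf rose by 0.41 in bound sleep deprivation (limma adjusted p = 0.0406), a call lost with quantile normalization, and stood at 0.12 in bound waking (adjusted p = 0.614). Its letters were found after the Opalin start and in 7.1% of all promoters, and a link between Myrf and Opalin was not tested. In unbound sleep deprivation Myrf rose by 0.87 (limma adjusted p = 0.0279). Of 11 tested precursor genes, none was called in bound waking by limma. In bound sleep deprivation 2 fell, Sox6 by 1.54 and Lhfpl3 by 1.33, where 6.87% of all genes were called lower. With 11 genes the count is too small to read a difference from. Sox6 averaged 4.51 in bound sleep deprived arrays, near the filter level of 4.47. Of the 11, 10 were called lower in bound than in unbound arrays.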
